A study of Mus musculus with 16 samples.

Results

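The genes described are the mouse genes whose symbol starts with Psma, Psmb, Psmc, Psmd, Psme, Psmf or Psmg followed by a digit, which takes in the proteasome subunits and their helpers. The rule used symbols and no measured value, and found 50 of the 20295 genes in the count table. They comprised 8 alpha subunits, 7 constitutive beta subunits and 4 inducible or tissue-specific beta subunits of the 20S core. The 19S particle gave 6 ATPases and 11 other subunits. There were 5 activators, 1 inhibitor (Psmf1), 4 chaperones of the core, 3 chaperones of the 19S base, and Psmc3ip, a meiotic recombination factor that is no subunit and carries the name only. Of the 50 members, 49 passed the filter on low counts. Psma8, a testis form of an alpha subunit, had 0 or 1 count in every sample and was not tested. Psmb11, the thymus beta subunit, had 8 to 15 counts in the triacsin C samples and 0 to 7 in the others, so it passed the filter through that group. Family medians leave it out, and the larger counts in the text are also given without it. Psme2b, a near-copy of Psme2, had 3 to 17 counts, and reads of these 2 genes may have been divided between them, so both are uncertain. Psme1, Psma4, Psmd1, Psmc3ip and Psme2b overlap another gene of the table, which the counts may not separate.

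The study asked how lipolysis, the release of fatty acids from stored fat, changes transcription in brown fat cells, and whether the fatty acids must first be activated or oxidised. RNA was sequenced from brown preadipocytes of wild-type mouse brown adipose tissue, immortalised with SV40 large T antigen, kept as 1 line and differentiated to day 7. Lipolysis was started with SR-3420, a ligand of ABHD5, at 10 µM for 3 h according to the labels, while the study's text gives a higher dose. The 16 samples fell into 6 groups: vehicle (DMSO, replicates 2 and 3), SR-3420 (replicates 1 and 3), and, with replicates 1 to 3 each, triacsin C at 5 µM, triacsin C followed by SR-3420, etomoxir at 50 µM, and etomoxir followed by SR-3420. The inhibitors were given 1 h before SR-3420. Triacsin C blocks the acyl-CoA synthetases that activate long-chain fatty acids, and etomoxir blocks CPT1, which carries them into mitochondria. The labels give replicate numbers only, while the study's methods speak of independent experiments, so p-values measure the spread between these samples, which may be in part technical. The total count per sample ranged from 9452861 to 25670624, and the 50 members took between 0.455% and 0.638% of it.

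The label was compared with markers of brown adipocytes. Fabp4, the fatty acid carrier of adipocytes, had the highest level among the 10 markers, with a mean of 5831 CPM (CPM are counts scaled by TMM library size, the unit of all levels here). Ucp1, the uncoupling protein that defines thermogenic fat, averaged only 2.16 CPM, and Dio2 0.0243 CPM, while Ppargc1a, Prdm16 and Cidea averaged 45.5, 21.9 and 18.7 CPM. The cells were therefore adipocytes by Fabp4, with Ucp1 and Dio2 very low and other markers of brown fat present. The summed level of the 10 markers was 14521, 15664 and 15040 CPM with triacsin C and 5861, 5835 and 6179 when SR-3420 followed, and 13906, 12947 and 14109 CPM with etomoxir against 7821, 5529 and 9504 when SR-3420 followed. Without inhibitor it was 14505 and 13164 CPM with vehicle and 10798 and 9744 with SR-3420. In this sum every SR-3420 sample was below its own control group, but Fabp4, the most abundant marker, weighs most in it and the markers did not move together. Of the 9 tested, SR-3420 called 0 higher and 1 lower (Pparg) without inhibitor, where 2.79% of all genes were lower, 1 higher (Prdm16) and 4 lower (Fabp4, Adipoq, Plin1 and Cebpa) after triacsin C, and 0 and 4 (Fabp4, Adipoq, Plin1 and Pparg) after etomoxir. Of all genes 17.3% were called higher and 19.7% lower after triacsin C, and 12.5% and 12.8% after etomoxir. Ucp1 was above 0 in all 3 of these comparisons, at 0.84, 0.75 and 1.11, none called. Triacsin C alone, which left the sum near that of vehicle, called 0 higher and 3 lower, Pparg (-1.48), Prdm16 (-2.14) and Ppargc1a (-1.04). Triacsin C added to SR-3420 called 0 higher and 4 lower, with a median of -1.04 over the 9. In these 2 comparisons 6.94% and 3.55% of all genes were called lower. Calls held in all alternatives for Fabp4, Adipoq and Plin1 after triacsin C, for Adipoq after etomoxir, and for Pparg and Prdm16 with triacsin C alone, and each other call of a brown adipocyte marker was lost in 1 to 6 of them. The 8 preadipocyte or fibroblast markers, led by Col1a1, summed to 1631 and 1417 CPM with vehicle and 3659 and 2666 with SR-3420, to 2302, 2038 and 1748 with triacsin C, against 4263, 3542 and 2820 when SR-3420 followed, and to 2008, 1443 and 947 with etomoxir, against 4321, 3124 and 2116. Here every SR-3420 sample was above its own control group, and SR-3420 called 0 of the 8 without inhibitor (median 0.74), and 3 higher after triacsin C and 6 after etomoxir, with 0 lower. After triacsin C Cd34 held in all 14 alternatives, while Thy1 was lost in 2 and Pdgfra in 8 (log2 fold change down to 0.11). After etomoxir Thy1, Col1a1, Dpt and Pdgfra were lost in 1, 3, 6 and 7 of 14. Leaving out triacsin C replicate 3 lost both Thy1 and Pdgfra, and leaving out etomoxir replicate 2 lost Col1a1, Dpt and Pdgfra. The 6 macrophage markers, led by Cd68, summed to 16.7, 18.5 and 17.4 CPM with triacsin C alone and to 4.33 to 10.5 CPM in the other samples. Of the 2 tested, Cd68 rose by 1.92 (SE 0.27, adjusted p = 0.000366) with triacsin C alone and fell by 1.29 (SE 0.22, adjusted p = 0.000651) when SR-3420 followed, in the quasi-likelihood test of edgeR with p adjusted by Benjamini-Hochberg, and both calls held in all alternatives. Csf1r did not share the fall of Cd68, at 1.18, 0.957 and 1.44 CPM with triacsin C and 1.67, 1.265 and 2.16 when SR-3420 followed. The median over the 2 tested macrophage markers was -0.39 there. The 5 endothelial markers, led by Kdr, summed to 0.86 to 3.58 CPM. Kdr, the only one tested, rose with SR-3420 by 0.96 after triacsin C, a call lost in 7 of 14 alternatives, and by 1.28 after etomoxir, where it held in all 14. The 6 muscle markers, led by Des, summed to 7.29 to 18.8 CPM, and Des was called lower with SR-3420 after triacsin C and after etomoxir, the latter call lost in 1 of 14 alternatives. The medians over the 3 tested muscle markers were -0.14 and 0.01 there. Myod1 did not share the fall, at 3.44, 1.98 and 3.64 CPM with triacsin C and 5.955, 6.83 and 3.28 when SR-3420 followed. With etomoxir it was at 2.37, 1.105 and 1.08 CPM, against 3.57, 4.02 and 1.77. No listed marker was at 0 in all samples. In these bulk samples fewer cells of a type and less RNA per cell cannot be told apart, and the part of these marker differences in the results below was not tested.

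The proteasome degrades proteins that carry ubiquitin chains. Its 20S core is a stack of alpha rings, which gate the entry, around beta rings, which hold the proteolytic sites, and the 19S particle recognises, unfolds and feeds in the substrate. In cells exposed to interferon the catalytic beta subunits are replaced by inducible forms, giving the immunoproteasome, and the PA28 activator caps the core. In brown fat the transcription factor NRF1, encoded by Nfe2l1, is known to maintain proteasome genes when heat production is demanded.

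Before any comparison, the subunits differed widely in level. Per kilobase of counted length, the mean over all samples was 389.5 CPM for Psmb4, a structural beta subunit, 262 for Psma7, an alpha subunit, 191 for Psmd3 of the 19S lid, and 114 for Psmc2 of the ATPase ring. The activator Psme3, the core chaperone Psmg3 and the base chaperone Psmd5 were lower, at 54.9, 39.7 and 38.5 CPM per kilobase. The constitutive catalytic subunits Psmb5, Psmb6 and Psmb7 stood at 95.7, 160.2 and 138 CPM per kilobase. Their inducible counterparts Psmb8, Psmb9 and Psmb10 stood at 18.5, 21.5 and 37.7, so in each pair the constitutive form was the more abundant transcript in these cells.

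A member is called here when its adjusted p was under 0.05 in the quasi-likelihood test of edgeR with p adjusted by Benjamini-Hochberg over 12786 genes, with the 6 group means in a single model. Ranges over alternatives given below include DESeq2 and the other settings tried. SR-3420 without inhibitor called 0 of the 49 tested members, where 7.54% of all genes were called. At an unadjusted p under 0.05 the same edgeR test gave 3 members, all lower (Psme1, Psme2 and Psmd5), with 9.7% of all genes lower in that way, and DESeq2 called 1 lower, with 5.47% of all genes. The members' median log2 fold change was -0.13, with -0.00 over all genes, and it moved to -0.00 without SR-3420 replicate 1 and to -0.03 without vehicle replicate 3. This comparison had 2 samples a side, with replicates 2 and 3 for vehicle and 1 and 3 for SR-3420. Replicate number and treatment can therefore not be fully told apart in it.

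After triacsin C, SR-3420 called 9 members lower and 0 higher, while 19.7% of all genes were called lower and 17.3% higher. The 9 are 18.4% of the members, a share close to that of all genes, and they are 8 of 48 without Psmb11. edgeR at an unadjusted p under 0.05 gave 0 higher and 10 lower, with 22.2% and 24.3% of all genes, and DESeq2 called 0 higher and 10 lower, with 20.4% and 20.7%. A block for the replicate number called 3 higher and 18 lower, with 27.5% and 28.7%. The members' median was -0.23 and that of all genes 0.02, a side that turned to 0.11 when each sample's trend over gene length was removed (the length offset). With it the median of all genes was 0.07, and 3 members were called higher and 5 lower, with 17.6% and 16.4% of all genes. In 17 members (16 without Psmb11) all SR-3420 samples lay below all samples with triacsin C alone, a pattern that 28.5% of all genes had.

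After etomoxir, SR-3420 called 2 members lower and 0 higher, where 12.8% of all genes were called lower and 12.5% higher. The 2 members are 4.08% of those tested. edgeR at an unadjusted p under 0.05 gave 0 higher and 6 lower, with 18.1% and 19.1% of all genes, and DESeq2 called the same numbers, with 14.7% and 15.5%. The median was -0.05 (0.01 over all genes). It lay between -0.10 and -0.02 when single samples were left out, and at 0.00 and 0.02 with the length offset and the offset for GC content and length. In all, 3 members lay lower without overlap of the groups, against 16.5% of all genes. Leaving out etomoxir replicate 3 raised the count to 4 lower, with 13.4% of all genes.

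Triacsin C alone called 3 members higher and 0 lower, with 4.77% of all genes higher and 6.94% lower. Here 6.12% of the members were called higher. At an unadjusted p under 0.05 edgeR gave 13 higher and 0 lower, with 12.1% of all genes higher and 12.1% lower, and DESeq2 called 7 higher and 0 lower, with 6.82% and 9.1%. A block for the replicate number called 15 of the 49 higher and 0 lower, with 12% and 12.1% of all genes. The block with the length offset called 1 higher and 0 lower, with 9.03% and 12%. The members' median was 0.31 and that of all genes 0.07, with 46 members above 0 (45 without Psmb11) and 3 below, and the members' median moved to 0.06 with the length offset, where 0 were called and that of all genes was -0.02. In 21 members (20 without Psmb11) the triacsin C samples were all above the vehicle samples, a pattern found in 24.4% of all genes. The 3 calls fell to 0 without vehicle replicate 3, and to 1 without vehicle replicate 2, triacsin C replicate 1 or triacsin C replicate 3. The share of all genes called higher fell as well, to 1.37%, 2.42%, 3.24% and 3.18% in that order.

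In the other comparisons edgeR called 0 members. Etomoxir alone called 0.0235% of all genes, and no member reached an unadjusted p under 0.05 (0.907% of all genes higher, 1.31% lower) or was called by DESeq2 (0.0469% and 0.0704%). Triacsin C added to SR-3420 called 4.58% of all genes, with 3 members higher at an unadjusted p under 0.05 (7.56% of all genes) and 1 by DESeq2 (3.57%). Etomoxir added to SR-3420 called 0.00782% of all genes and 0 members in each of these ways. There 3.01% of all genes were higher and 6.99% lower at an unadjusted p under 0.05, and DESeq2 called 0.0547% and 0.594%. The test of the difference between responses, an interaction in the same edgeR model, asks whether an inhibitor altered the response to SR-3420. It called 2.51% of all genes for the response with triacsin C minus that without inhibitor, 0% for etomoxir in the same place, and 2.29% for triacsin C minus etomoxir. Members at an unadjusted p under 0.05 numbered 1, 0 and 2 there, all lower, with 9.65%, 1.6% and 5.83% of all genes lower. DESeq2 called 0 members in all 3, with 3.48%, 0.0235% and 3.55% of all genes higher and 3.03%, 0.0469% and 1.78% lower. The smallest adjusted p in the edgeR test was 0.22, 0.988 and 0.27, for Psma7, Psmg4 and Psma7. In this model no member was therefore called as responding differently to SR-3420 between backgrounds. A block for the replicate number called 3 members lower and 0 higher for the response with triacsin C minus that without inhibitor. There 7.29% of all genes were lower and 5.76% higher, and 0 members were called in the other differences. With the offset for GC content and length 2 members were called (1 higher, 1 lower, with 4.3% and 3.97% of all genes) for the response with triacsin C minus that without inhibitor, and 5 (4 higher, 1 lower, with 7.51% and 10.4%) for triacsin C added to SR-3420. Several of these comparisons share control samples, and how the calls depend on other settings is given with the processing.

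**Figure D1:**
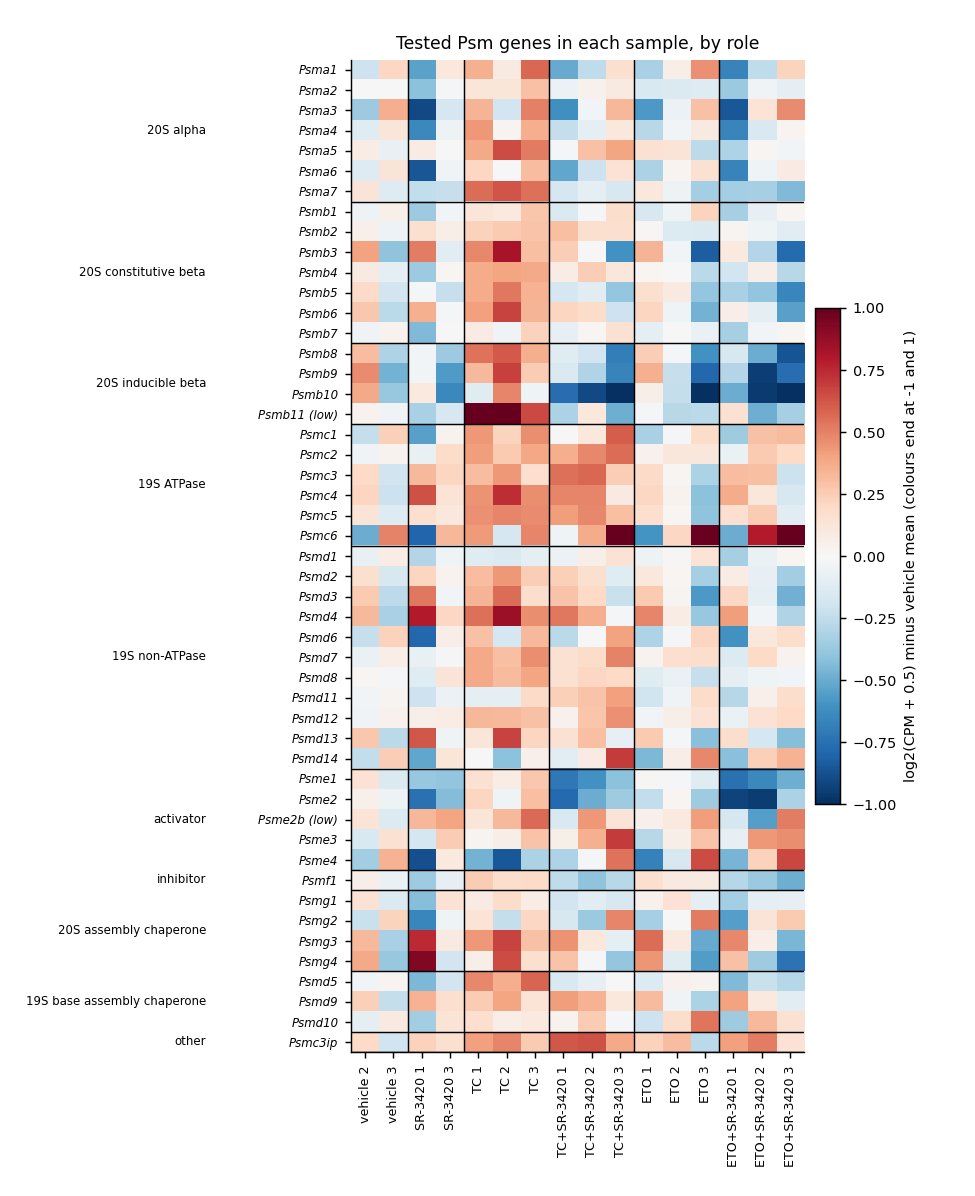
Each row is a tested Psm gene, grouped by role, and each column a sample; colour gives log2(CPM + 0.5) minus the vehicle mean, with colours ending at -1 and 1, and "low" marks Psmb11 and Psme2b. Psmb8, Psmb9, Psmb10, Psme1 and Psme2 are blue in the columns of triacsin C with SR-3420, while Psma7 is red in the 3 triacsin C columns, at 364 to 384 CPM.

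Among the alpha subunits, which form the outer rings and the gate of the core, Psma7 was the most abundant per kilobase, and it was called higher in 1 comparison and lower in another. Psma7 was at 272 and 227 CPM with vehicle and 209 and 212 with SR-3420. With triacsin C it was at 367, 384 and 364 CPM, against 221, 233 and 223 when SR-3420 followed, and with etomoxir at 268, 239.7 and 196, against 197, 198 and 183. The triacsin C samples were above all the others, and the 3 with triacsin C and SR-3420 lay within the range of the vehicle and SR-3420 samples. Psma7 rose by 0.57 (SE 0.14) on the log2 scale with triacsin C alone, adjusted p = 0.0133, and fell by 0.72 (SE 0.12) with SR-3420 after triacsin C, adjusted p = 0.000459, in the quasi-likelihood test of edgeR with p adjusted by Benjamini-Hochberg. The fall after triacsin C held in all 14 alternatives run (log2 fold change -0.74 to -0.30), and the rise was lost in 3 of 13, among them without vehicle replicate 3 (0.45, adjusted p = 0.181) and with the length offset (0.25, adjusted p = 0.156), by the same edgeR test with Benjamini-Hochberg adjustment. Over those 13 its adjusted p ran from 0.000136 to 0.181 by edgeR or DESeq2, each with Benjamini-Hochberg adjustment. With SR-3420 after etomoxir it was at -0.28 and without inhibitor at -0.25, neither called.

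The other 6 tested alpha subunits were not called in any comparison. After triacsin C their log2 fold changes with SR-3420 ran from -0.53 (Psma1) to -0.15 (Psma2), and with triacsin C alone from 0.17 (Psma6) to 0.53 (Psma5). Psma3, with 40.8% GC, ranged from 7.37 to 20.4 CPM, and its 4 lowest samples were all first replicates.

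The constitutive beta subunits carry the proteolytic sites of the resting proteasome. Psmb5 holds the chymotrypsin-like site. Psmb5 had 96.97, 108 and 95.2 CPM in the triacsin C samples and 66.3, 69.3 and 57.1 in those that then received SR-3420. The etomoxir samples had 83.8, 79.7 and 57.2 CPM, against 59.6, 56.9 and 47.3 with SR-3420 added, and without inhibitor the values were 85.8 and 65.4 with vehicle, against 74.05 and 63.9 with SR-3420. All triacsin C samples were higher than those with triacsin C and SR-3420, while the etomoxir groups overlapped. Psmb5 fell by 0.64 (SE 0.16) with SR-3420 after triacsin C, adjusted p = 0.00775, in the quasi-likelihood test of edgeR with p adjusted by Benjamini-Hochberg. The call was lost with the length offset (-0.21, adjusted p = 0.187) and with the offset for GC content and length (-0.11, adjusted p = 0.295) in the same edgeR test with Benjamini-Hochberg adjustment. Over 14 alternatives by edgeR or DESeq2 the Benjamini-Hochberg adjusted p ran from 8.7e-05 to 0.295.

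Psmb6 holds the caspase-like site. Its vehicle samples had 186 and 128 CPM and its SR-3420 samples 198 and 152. Triacsin C gave 205, 247 and 196 CPM alone, against 179.8, 176 and 134 followed by SR-3420, and etomoxir gave 179.7, 150.1 and 111, against 162, 144 and 106. The triacsin C samples again lay above those that received SR-3420, but the replicates of each group were far apart, and the log2 fold change of -0.41 had an adjusted p of 0.163 in the quasi-likelihood test of edgeR with p adjusted by Benjamini-Hochberg.

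Psmb7 holds the trypsin-like site. Levels of Psmb7 were 133 and 139 CPM with vehicle, 100.3 and 136 with SR-3420, 144, 133 and 160.0 with triacsin C and 129, 138 and 152 with triacsin C and SR-3420. After etomoxir they were 128, 136 and 130.5 CPM, and 108, 134 and 138 with SR-3420 added. Its groups overlapped in all comparisons with SR-3420, and its log2 fold change after triacsin C was -0.06 (SE 0.14). Psmb4, a structural subunit and the highest member per kilobase, had 460.0, 468 and 464 CPM with triacsin C and 375, 423 and 384 with triacsin C and SR-3420. Those groups did not overlap, and the log2 fold change of -0.24 (SE 0.13) had an adjusted p of 0.185 in the quasi-likelihood test of edgeR with p adjusted by Benjamini-Hochberg. The remaining constitutive subunits Psmb1, Psmb2 and Psmb3 were at -0.16, -0.05 and -0.63 after triacsin C, none called.

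The inducible beta subunits included the lowest fold changes with SR-3420 after triacsin C. Psmb10 replaces Psmb7 in the immunoproteasome. Psmb10 was at 79.1 and 46.8 CPM with vehicle and 65.2 and 38.7 with SR-3420. With triacsin C it was at 56.01, 85.7 and 58.9 CPM, against 35.7, 32.4 and 26.3 when SR-3420 followed, and with etomoxir at 63.4, 51.4 and 29.7, against 42.9, 31.04 and 22.7. The samples with triacsin C and SR-3420 were all lower than those with triacsin C alone, and the vehicle samples lay apart from each other by more than the vehicle and SR-3420 means did. Psmb8 replaces Psmb5 and lies beside Psmb9 in the major histocompatibility region (mm9 chr17:34335140-34338399 and chr17:34319044-34324275). Psmb8 had 34.2, 35.9 and 30.1 CPM in the triacsin C samples and 21.4, 20.4 and 14.3 in those that then received SR-3420. The etomoxir samples had 27.9, 23.1 and 15.2 CPM, against 20.8, 16.4 and 12.6 with SR-3420 added, and without inhibitor the values were 29.1 and 18.7 with vehicle, against 22.9 and 18.03 with SR-3420. The triacsin C samples were the highest of the series for this gene, and none of the samples that then received SR-3420 reached them. Psmb9 replaces Psmb6. Its vehicle samples had 26.3 and 13.4 CPM and its SR-3420 samples 18.4 and 12.5. Triacsin C gave 23.6, 30.6 and 22.5 CPM alone, against 16.97, 15.2 and 11.6 followed by SR-3420, and etomoxir gave 24.2, 15.9 and 10.7, against 15.2, 9.57 and 10.9. Again the samples with triacsin C and SR-3420 were all lower than those with triacsin C alone, while the etomoxir groups overlapped.

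With SR-3420 after triacsin C, Psmb10 fell by 1.09 (SE 0.33, adjusted p = 0.0181) and Psmb8 by 0.83 (SE 0.26, adjusted p = 0.0216), while Psmb9 was at -0.81 (SE 0.32) and missed the threshold with an adjusted p of 0.0622, in the quasi-likelihood test of edgeR with p adjusted by Benjamini-Hochberg. Neither call held in every fit without a single sample, and those fits also called fewer of all genes lower (14.7% to 17.2%). By the same edgeR test with Benjamini-Hochberg adjustment, Psmb10 was lost without triacsin C replicate 2 (-0.87, adjusted p = 0.0852) and without replicate 3 of triacsin C with SR-3420 (-0.98, adjusted p = 0.0683), and with the length offset (-0.75, adjusted p = 0.0553), in a range from 0.000162 to 0.0852 over 14 alternatives by edgeR or DESeq2. Psmb8 was lost without triacsin C replicate 1 (-0.82, adjusted p = 0.0525) or 2 (-0.78, adjusted p = 0.0684), without replicate 3 of triacsin C with SR-3420 (-0.67, adjusted p = 0.089), and with the length offset (-0.50, adjusted p = 0.0987), in a range from 0.000101 to 0.0987 over 14 alternatives by edgeR or DESeq2 (Benjamini-Hochberg adjusted). With SR-3420 after etomoxir the 3 genes were at -0.58, -0.41 and -0.51 in the order Psmb10, Psmb8 and Psmb9, and without inhibitor at -0.28, -0.23 and -0.36, none called. Psmb11 was called after triacsin C (-2.94), but from 9, 15 and 8 counts against 1, 3 and 0. It passed the filter because of those triacsin C samples and supports nothing here.

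**Figure D2:**
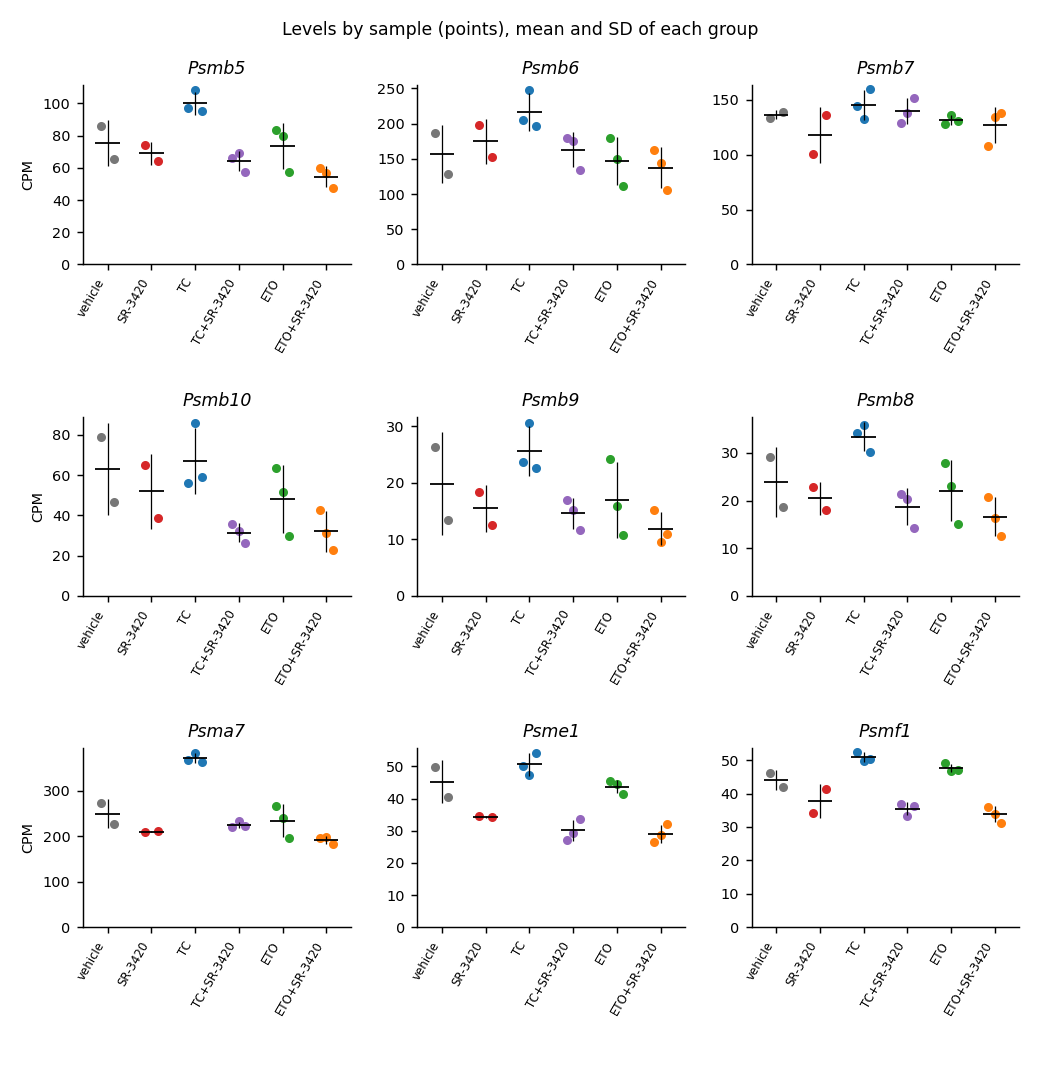
Points are samples in CPM, horizontal lines the group means and vertical lines the SD, for the constitutive catalytic subunits (top), the inducible subunits (middle), and Psma7, Psme1 and Psmf1 (bottom). For Psme1 and Psmf1 the points with inhibitor and SR-3420 lie below those with the inhibitor alone, at 26.6 to 33.7 and 31.3 to 36.9 CPM.

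Since Psmb8, Psmb9 and Psme1 belong to a set of genes that interferons induce, and Psmb5 is the constitutive partner of Psmb8, the 250 bases before their starts are shown, from the RefSeq promoter table of build GRCm38.p6. They are Psmb5 (chr14:54617996-54618245, minus strand), Psmb8 (chr17:34197945-34198194, plus strand), Psmb9 (chr17:34187331-34187555, minus strand, 225 bases, ending where the divergent gene Tap1 begins) and Psme1 (chr14:55578244-55578493, plus strand), each written 5′ to 3′ on its own strand and lying upstream of the first exon. The positions of genes given elsewhere are in mm9 and were not converted. Capitals mark a match to a searched pattern.
Psmb5: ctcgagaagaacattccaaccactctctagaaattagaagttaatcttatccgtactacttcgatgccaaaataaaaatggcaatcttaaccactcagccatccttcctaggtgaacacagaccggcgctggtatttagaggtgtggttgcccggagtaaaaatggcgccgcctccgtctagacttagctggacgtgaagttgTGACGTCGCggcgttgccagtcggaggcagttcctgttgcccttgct
Psmb8: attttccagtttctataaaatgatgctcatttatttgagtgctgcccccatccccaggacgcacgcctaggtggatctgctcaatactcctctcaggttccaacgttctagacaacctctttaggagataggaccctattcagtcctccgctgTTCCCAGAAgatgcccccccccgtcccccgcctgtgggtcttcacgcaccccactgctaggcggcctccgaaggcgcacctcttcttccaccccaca
Psmb9: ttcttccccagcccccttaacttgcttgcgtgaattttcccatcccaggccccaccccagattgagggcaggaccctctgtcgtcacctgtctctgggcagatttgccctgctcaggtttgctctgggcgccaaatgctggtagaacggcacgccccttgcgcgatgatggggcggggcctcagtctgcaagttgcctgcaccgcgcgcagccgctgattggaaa
Psme1: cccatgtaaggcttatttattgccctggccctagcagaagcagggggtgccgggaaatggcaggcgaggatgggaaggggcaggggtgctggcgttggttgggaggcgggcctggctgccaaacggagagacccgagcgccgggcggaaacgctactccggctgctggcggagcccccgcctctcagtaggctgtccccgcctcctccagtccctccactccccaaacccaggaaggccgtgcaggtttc

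The 3 patterns, searched on both strands, were TGACNNNGC (the core of an antioxidant response element), TTCNNNGAA (a gamma-activated site), and GAAA followed after 2 free bases by another GAAA (an interferon response element). A promoter was found for 42 of the 50 members, and none of the patterns contains another. These 42 genes had 45 promoters. Members were counted by gene, with a match in any of its promoters, and the background by promoter. The 2 shares in each pair below are therefore not in the same unit. TGACNNNGC was present in 5 of the 42 (Psmb5, Psmb6, Psmc6, Psmd12 and Psmd9), or 11.9%, and in 10.2% of 32851 promoters. TTCNNNGAA was present in Psmb8 and Psmg1, or 4.76%, and in 7.02% of all promoters. The interferon pattern was present in Psmb3, Psmd4 and Psmd9, or 7.14%, and in 2.98% of all. In Psmb5 the match lay at -47 to -39 from the start, and in Psmb8 at -97 to -89. A match describes the letters in the window and is not evidence of a bound site.

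The 6 ATPases of the 19S base, which unfold substrates with ATP, were called in none of the comparisons. Levels of Psmc2 were 171 and 179 CPM with vehicle, 166 and 199.5 with SR-3420, 235, 210.4 and 229.8 with triacsin C and 226, 245 and 259 with triacsin C and SR-3420. After etomoxir they were 180.3, 189.7 and 189 CPM, and 167, 210.0 and 201 with SR-3420 added. Its samples with triacsin C were all higher than the vehicle samples, with or without SR-3420. With triacsin C alone the 6 ATPases ran from 0.20 (Psmc6) to 0.54 (Psmc4) in log2 fold change, and with SR-3420 after triacsin C from -0.19 (Psmc4) to 0.34 (Psmc6). Psmc6 ranged from 25.4 to 104 CPM, and its 2 lowest samples were first replicates.

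The 11 non-ATPase subunits of the 19S include the ubiquitin receptor Psmd4, the deubiquitinase Psmd14 and the scaffolds Psmd1 and Psmd2. Only Psmd8, a lid subunit, was called. Psmd8 was at 164 and 159.6 CPM with vehicle and 148 and 177 with SR-3420. With triacsin C it was at 210.4, 201 and 212 CPM, against 179.8, 187 and 185 when SR-3420 followed, and with etomoxir at 148, 155 and 138, against 151, 157 and 159. The triacsin C samples were the highest, at 201 to 212 CPM. Psmd8 rose by 0.36 (SE 0.11) with triacsin C alone, adjusted p = 0.0456, in the quasi-likelihood test of edgeR with p adjusted by Benjamini-Hochberg. This call was lost in 10 of 13 alternatives, among them each of the 5 fits that left out a vehicle or triacsin C sample (0.34 to 0.39, adjusted p = 0.0806 to 0.251) and the offset for GC content and length (0.08, adjusted p = 0.749), in the same edgeR test with Benjamini-Hochberg adjustment. Over the 13 by edgeR or DESeq2 the Benjamini-Hochberg adjusted p ran from 0.00095 to 0.749. Psmd3 had 482, 562 and 429 CPM in the triacsin C samples and 465, 436 and 325 in those that then received SR-3420. The etomoxir samples had 457, 388 and 255 CPM, against 439.7, 356 and 272 with SR-3420 added, and without inhibitor the values were 456 and 317 with vehicle, against 548 and 374 with SR-3420. Psmd3, another lid subunit, had groups that overlapped in each comparison with SR-3420. Psmd4 ranged from 135 to 319.8 CPM and Psmd14 from 46.6 to 109 CPM, and with SR-3420 after triacsin C they were at -0.33 and 0.38, neither called.

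The activators dock on the core in place of the 19S particle. Psme1 and Psme2, neighbours on chromosome 14 (mm9 chr14:56197331-56200364 and chr14:56206277-56209938), form the PA28 ring that interferons induce. For Psme1 the vehicle samples had 49.9 and 40.6 CPM and the SR-3420 samples 34.5 and 34.1. Triacsin C gave 50.2, 47.4 and 54.2 CPM alone, against 27.3, 29.4 and 33.7 followed by SR-3420, and etomoxir gave 45.4, 44.4 and 41.3, against 26.6, 28.6 and 31.97. Each sample with an inhibitor and SR-3420 was lower than each with that inhibitor alone, and both SR-3420 samples were lower than both vehicle samples. Psme1 fell by 0.75 (SE 0.13, adjusted p = 0.000488) after triacsin C and by 0.59 (SE 0.12, adjusted p = 0.00399) after etomoxir, in the quasi-likelihood test of edgeR with p adjusted by Benjamini-Hochberg. Without inhibitor it was at -0.40 (SE 0.15, adjusted p = 0.139 in that test). Both calls held in 13 of 14 alternatives and were lost with the offset for GC content and length (-0.26, adjusted p = 0.237, and -0.43, adjusted p = 0.0649, in the same edgeR test with Benjamini-Hochberg adjustment). Over the alternatives by edgeR or DESeq2 the Benjamini-Hochberg adjusted p ran from 2.2e-08 to 0.237 and from 7.92e-06 to 0.0649.

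Levels of Psme2 were 11.5 and 10.6 CPM with vehicle, 6.37 and 8.06 with SR-3420, 12.9, 10.7 and 13.7 with triacsin C and 6.21, 7.67 and 8.54 with triacsin C and SR-3420. After etomoxir they were 9.22, 11.2 and 8.53 CPM, and 5.58, 5.48 and 8.77 with SR-3420 added. These are low levels, and the groups with triacsin C did not overlap. Psme2 fell by 0.74 (SE 0.21, adjusted p = 0.0155) after triacsin C in the quasi-likelihood test of edgeR with p adjusted by Benjamini-Hochberg, and was at -0.55 after etomoxir and -0.61 without inhibitor, not called. The call was lost in 6 of 14 alternatives, among them without triacsin C replicate 3 (-0.66, adjusted p = 0.0581), without replicate 1 (-0.62, adjusted p = 0.0659) or 2 (-0.71, adjusted p = 0.0519) of triacsin C with SR-3420, and with the length offset (-0.32, adjusted p = 0.308) or the offset for GC content and length (-0.26, adjusted p = 0.377), in the same edgeR test with Benjamini-Hochberg adjustment. Over the 14 by edgeR or DESeq2 the Benjamini-Hochberg adjusted p ran from 0.00417 to 0.377.

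Psme3, the nuclear activator PA28 gamma, and Psme4, the activator PA200, did not share this direction after either inhibitor. Psme3 was at 114 and 142 CPM with vehicle and 112 and 152 with SR-3420. With triacsin C it was at 129.9, 133 and 156 CPM, against 132, 163 and 207 when SR-3420 followed, and with etomoxir at 105, 133 and 155, against 119.9, 172 and 176. The groups overlapped, and the log2 fold change with SR-3420 was 0.26 (SE 0.21) after triacsin C and 0.25 (SE 0.21) after etomoxir, neither called. Psme4 had 59.99, 46.1 and 67.05 CPM with triacsin C and 67.5, 82.4 and 122 with triacsin C and SR-3420, with a log2 fold change of 0.65 (SE 0.39, adjusted p = 0.206 in the quasi-likelihood test of edgeR with p adjusted by Benjamini-Hochberg). Psme2b was at -0.35 there, from counts too low to weigh.

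Psmf1 encodes PI31, a protein that inhibits the core in vitro. Psmf1 had 52.5, 49.7 and 50.3 CPM in the triacsin C samples and 36.9, 33.2 and 36.2 in those that then received SR-3420. The etomoxir samples had 49.1, 46.7 and 46.98 CPM, against 36.01, 33.96 and 31.3 with SR-3420 added, and without inhibitor the values were 46.1 and 41.96 with vehicle, against 34.2 and 41.5 with SR-3420. As for Psme1, each sample with an inhibitor and SR-3420 was below each with that inhibitor alone. Psmf1 fell by 0.52 (SE 0.11, adjusted p = 0.0024) after triacsin C and by 0.50 (SE 0.11, adjusted p = 0.00495) after etomoxir in the quasi-likelihood test of edgeR with p adjusted by Benjamini-Hochberg. The first call held in all 14 alternatives (-0.58 to -0.43), and the second in 13, being lost when only the samples of the groups compared were fitted (-0.51, adjusted p = 0.0724 in that edgeR test, with a range from 1.88e-05 to 0.0724 over the 14 by edgeR or DESeq2). At 3542 bases its counted length is above the median of all tested genes, unlike most members.

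Of the chaperones that assemble the 19S base, Psmd5 was called. Its vehicle samples had 76.99 and 79.96 CPM and its SR-3420 samples 57.2 and 68.7. Triacsin C gave 109.7, 101 and 118 CPM alone, against 70.7, 73.96 and 78.8 followed by SR-3420, and etomoxir gave 71.3, 80.8 and 80.5, against 57.7, 67.04 and 64.5. The triacsin C samples were above all the others, and the samples with triacsin C and SR-3420 were close to the vehicle samples. Psmd5 rose by 0.48 (SE 0.13, adjusted p = 0.0261) with triacsin C alone and fell by 0.55 (SE 0.11, adjusted p = 0.00193) with SR-3420 after triacsin C in the quasi-likelihood test of edgeR with p adjusted by Benjamini-Hochberg. The fall held in all 14 alternatives (-0.61 to -0.37), while the rise was lost in 7 of 13, among them without vehicle replicate 2 (0.45, adjusted p = 0.153) or 3 (0.51, adjusted p = 0.133) and without triacsin C replicate 1 (0.48, adjusted p = 0.0667) or 3 (0.42, adjusted p = 0.096), in the same edgeR test with Benjamini-Hochberg adjustment. Over the 13 by edgeR or DESeq2 the Benjamini-Hochberg adjusted p ran from 0.00191 to 0.208. Psmd9 and Psmd10, the other base chaperones, were at 0.03 and -0.02 after triacsin C. The core chaperones Psmg1, Psmg2, Psmg3 and Psmg4 ran from -0.34 to -0.02 there, none called. Levels of Psmg3 were 35.5 and 22.6 CPM with vehicle, 47.9 and 30.2 with SR-3420, 38.5, 45.6 and 34.9 with triacsin C and 38.8, 30.6 and 26.5 with triacsin C and SR-3420. After etomoxir they were 41.9, 30.4 and 19.9 CPM, and 39.8, 29.6 and 20.6 with SR-3420 added. Its replicates differed more than its groups.

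Set side by side, the 20S core and the 19S particle differed in median after triacsin C, and Psmb11 and Psme2b are left out of these medians. With SR-3420 after triacsin C 19.7% of all genes were called lower. There the 17 other core genes had a median log2 fold change of -0.36, all 17 below 0 with 4 called, near that share. The 17 genes of the 19S had -0.09, 11 below 0 with 0 called. These medians moved to -0.02 and 0.19 with the length offset, where 8 and 14 genes were above 0, and to -0.12 and 0.14 with the offset for GC content and length, so the side of 0 turned for the 19S and the core stayed the lower of the 2 families. The 4 other activators, 2 on each side of 0, were at -0.24, and at 0.00 and -0.05 with the 2 offsets, and the 9 cofactors at -0.27, which turned to 0.14. The inducible subunits Psmb8, Psmb9 and Psmb10 were at -0.83, and at -0.50 and -0.40 with the 2 offsets, all 3 below 0 each time. Leaving out single samples gave -0.47 to -0.28 for the core, -0.12 to 0.00 for the 19S, -0.38 to -0.10 for the activators, -0.29 to -0.15 for the cofactors and -0.94 to -0.67 for the inducible subunits. Whether the families differ was not tested.

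With SR-3420 after etomoxir the core was at -0.14, the 19S at 0.01 (-0.00 with the size factors of DESeq2), the activators at -0.19, again with 2 on each side, and the inducible beta subunits at -0.51. Leaving out single samples moved these between -0.22 and -0.04, -0.02 and 0.10, -0.39 and -0.01, and -0.75 and -0.20. Without inhibitor the medians were -0.20, 0.06, -0.38 and -0.28, and single samples moved them between -0.25 and -0.05, -0.08 and 0.08, -0.59 and -0.17, and -0.67 and 0.15, so the core and the activators kept their side of 0 there. With triacsin C alone, core and 19S were at 0.34 and 0.34, and at 0.03 and 0.11 with the length offset, which turned the activators from 0.14 to -0.16. Without single samples these 3 medians ran from 0.22 to 0.47, 0.31 to 0.34 and 0.06 to 0.18. For etomoxir alone the medians of core and 19S were -0.09 and -0.04, and without single samples each reached the other side of 0, at 0.01 and 0.07.

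**Figure D3:**
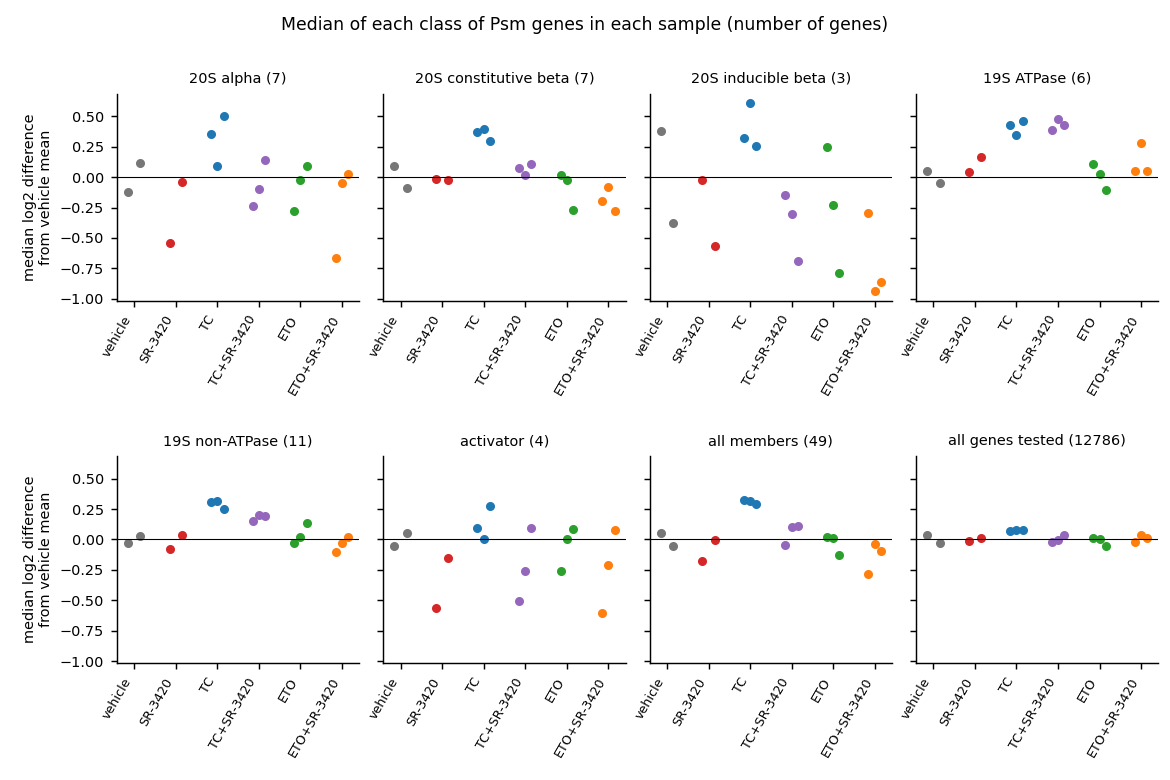
Each point is a sample and gives the median, over the tested genes of a class, of log2(CPM + 0.5) minus the vehicle mean; Psmb11 and Psme2b are left out of the class panels, and the last panels show all 49 members and all 12786 genes. For all members the triacsin C samples lie at 0.29 to 0.32, where the medians of all genes lie at 0.07 to 0.08; with the length offset the activators' fold change for triacsin C alone turned from 0.14 to -0.16.

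The members are short genes, and in several comparisons fold changes followed length. Their median counted length was 1277 bases, that of all tested genes 2786, and 44 of the 49 were shorter than the latter. With SR-3420 after triacsin C the median log2 fold change of all genes was -0.37 in the shortest of 10 equal bins of genes by length and 0.51 in the longest. With triacsin C alone it was 0.29 and -0.33. The shortest bin held 20 members and the next 15. Set against the median of their own bin, the members had a median difference of 0.07 after triacsin C, with 31 above and 18 below (31 and 17 without Psmb11), and of 0.12 with triacsin C alone, with 29 above and 20 below. Of the 18 core genes tested 11 were below their bin after triacsin C (10 of 17 without Psmb11), and of the 17 genes of the 19S 3. Across genes, which are not independent replicates, Spearman's rho of fold change with length was 0.418 over the members and 0.336 over all genes after triacsin C, and -0.189 and -0.359 for triacsin C alone. With SR-3420 after etomoxir it was 0.444 and 0.145. For SR-3420 without inhibitor it was near 0, at -0.034 and 0.037, and for triacsin C added to SR-3420 it was 0.356 over the members and 0.068 over all genes. The medians above are to be read beside these values.

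**Figure D4:**
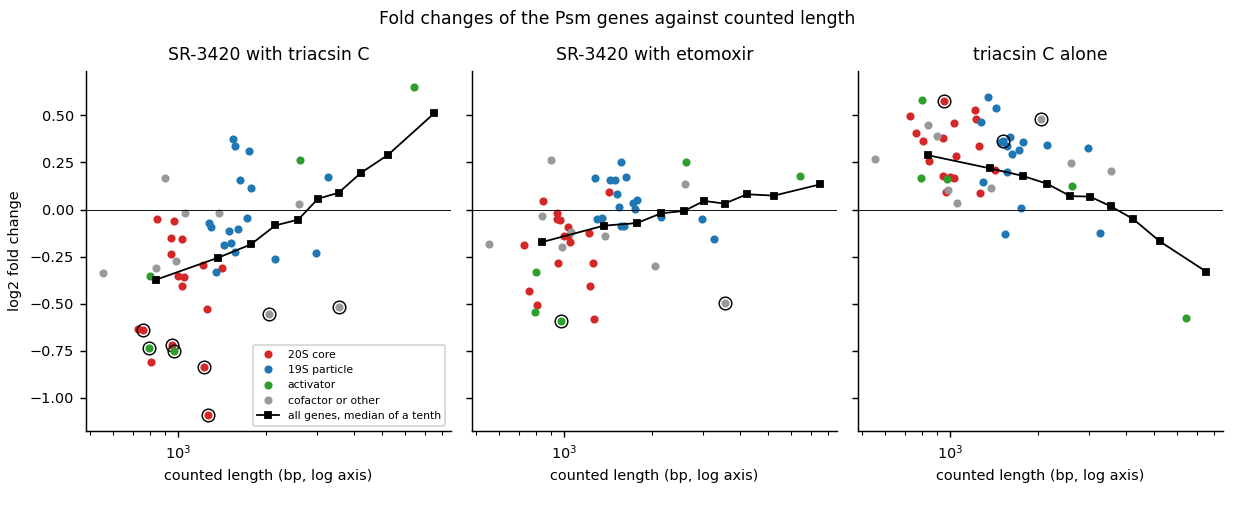
Points are members by counted length (log axis) and log2 fold change, coloured by family, rings mark calls, and black squares give the median of all genes in each of 10 length bins; Psmb11 is not drawn. After triacsin C the squares run from -0.37 to 0.51, and Psmb10, Psmb8, Psme1, Psma7, Psmd5 and Psmf1 lie below them.

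Within groups, samples differed along GC content. Replicates 1 and 3 were both present in 5 groups. Of the 49 tested members, 12 were higher in replicate 1 than in replicate 3 in all 5 groups and 18 were lower. Of all genes 24.4% were higher and 22.2% lower in that way, so the members were lower more often than all genes. The mean difference followed the GC content of the coding transcript with a Spearman's rho of 0.871 over 48 members and 0.817 over 11959 genes, across genes that are not independent. Psmc6, with 36.2% GC, was low in replicate 1, and Psmd3, with 58.3%, was high. The median GC content was 50.3% for members and 50.8% for all tested genes.

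**Figure D5:**
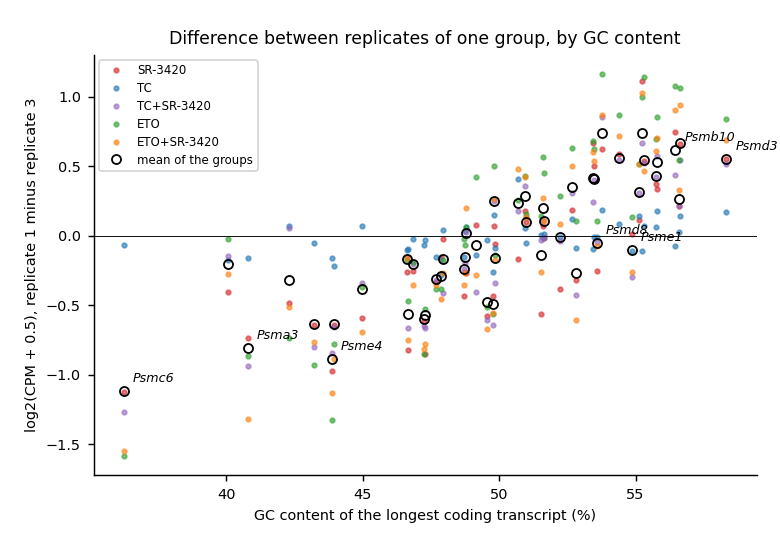
For each member, GC content of its longest coding transcript (%) against log2(CPM + 0.5) of replicate 1 minus replicate 3, with a coloured point per group and an open circle for the mean. The circles rise from left to right, with Psmc6 lowest at 36.2% GC.

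Genes that act with the proteasome were taken from lists. Of 12 partners outside the symbol rule, 11 were matched and tested, and 0 were called without inhibitor, 1 higher after triacsin C and the same gene after etomoxir, where 17.3% and 12.5% of all genes were called higher. This was Akirin2, which brings proteasomes into the nucleus, at 0.69 (SE 0.15, adjusted p = 0.00252) and 0.55 (SE 0.15, adjusted p = 0.0139) in the quasi-likelihood test of edgeR with p adjusted by Benjamini-Hochberg. The second call was lost without etomoxir replicate 1 (0.50, adjusted p = 0.0512) and without replicate 3 of etomoxir with SR-3420 (0.39, adjusted p = 0.0546), in a range from 0.000575 to 0.108 over 14 alternatives by edgeR or DESeq2 (Benjamini-Hochberg adjusted). The core maturation factor Pomp was at -0.33 after triacsin C, the ubiquitin receptor Adrm1 at -0.13, and the deubiquitinases Usp14 and Uchl5 at 0.42 and 0.52, none called. The partners' median there was 0.38, with 0.02 over all genes.

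Nfe2l1, whose product NRF1 controls proteasome genes, was at 497 to 723 CPM. Its triacsin C samples (704, 723 and 689.7 CPM) were all higher than those that then received SR-3420 (580.0, 591 and 600.3 CPM), with a log2 fold change of -0.26 (SE 0.10, adjusted p = 0.0603 in the quasi-likelihood test of edgeR with p adjusted by Benjamini-Hochberg). In the list of 11 genes around NRF1, SR-3420 called 3 higher and 0 lower without inhibitor, 1 and 1 after triacsin C, and 4 and 0 after etomoxir, and triacsin C alone 3 and 0. Of all genes 4.75% were called higher and 2.79% lower without inhibitor, with the shares for the other comparisons at 17.3% and 19.7%, 12.5% and 12.8%, and 4.77% and 6.94%. The list medians were 0.29, 0.04, 0.27 and 0.37. Maff, a small MAF partner, rose by 1.80, 0.81 and 1.53 in the 3 SR-3420 comparisons, the first lost only when just the groups compared were fitted (1.77, adjusted p = 0.0596, in a range from 2.46e-08 over 12 alternatives by edgeR or DESeq2, Benjamini-Hochberg adjusted). It also rose by 1.35 with triacsin C alone, a call lost without vehicle replicate 3 (1.13, adjusted p = 0.0576, in a range from 4.07e-06 over 13 alternatives by edgeR or DESeq2, Benjamini-Hochberg adjusted). Ddi2, the protease that activates NRF1, was at 0.29, 0.00 and 0.33, not called. Nfe2l3, a relative of NRF1, had 8.17, 8.07 and 9.40 CPM with triacsin C and 1.99, 2.28 and 1.69 with triacsin C and SR-3420, and fell by 2.10 (SE 0.28, adjusted p = 8.44e-05) in the quasi-likelihood test of edgeR with p adjusted by Benjamini-Hochberg.

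Other calls in this list were lost in some fits without a single sample. The adjusted p are from the quasi-likelihood test of edgeR with p adjusted by Benjamini-Hochberg, and the ranges include DESeq2. Mafk rose by 1.12 (adjusted p = 0.0469) without inhibitor by that edgeR test (Benjamini-Hochberg), which each of the 4 fits without a single sample lost (0.85 to 1.43, adjusted p = 0.0584 to 0.294, in a range from 0.000246). After etomoxir Mafk rose by 0.96 (adjusted p = 0.015), lost without replicate 2 of etomoxir with SR-3420 (0.89, adjusted p = 0.0575, in a range from 9.98e-06 to 0.0665 by edgeR or DESeq2, Benjamini-Hochberg adjusted). Nfe2l2, the relative of NRF1 that responds to oxidants, rose by 0.81 (adjusted p = 0.0241) after etomoxir by the edgeR test (Benjamini-Hochberg), lost without etomoxir replicate 1 or 2 or replicate 2 or 3 of etomoxir with SR-3420 (0.66 to 0.77, adjusted p = 0.0746 to 0.0899, in a range from 7.85e-05 to 0.0934). Mafg rose by 0.96 (adjusted p = 0.0149) with triacsin C alone by the edgeR test (Benjamini-Hochberg), lost without vehicle replicate 3 (0.73, adjusted p = 0.194) or triacsin C replicate 2 (0.88, adjusted p = 0.0536, in a range from 8.49e-05 to 0.194).

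Zfand2a, a stress-induced proteasome binder, rose by 0.53 after etomoxir, where only the fit to the groups compared lost it (0.52, adjusted p = 0.0733, in a range from 1.89e-08 by edgeR or DESeq2, Benjamini-Hochberg adjusted), and by 0.82 with triacsin C alone. Its rise of 0.55 without inhibitor was lost in each of the 4 fits without a single sample (0.50 to 0.61, adjusted p = 0.0524 to 0.144 by edgeR with Benjamini-Hochberg adjustment, in a range from 1.61e-05 to 0.341), and that of 0.52 for triacsin C added to SR-3420 in each of 5 (0.48 to 0.56, adjusted p = 0.0543 to 0.169, in a range from 1.75e-06 to 0.169). Nfe2l3 fell by 1.16 for triacsin C added to SR-3420 by the edgeR test (Benjamini-Hochberg adjusted p = 0.0446), lost without SR-3420 replicate 1 (-0.55, adjusted p = 0.703) and without each sample of triacsin C with SR-3420 (-1.27 to -1.06, adjusted p = 0.0921 to 0.157, in a range from 0.0137 to 0.703).

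Of 15 genes for ubiquitin supply, VCP and shuttle factors, SR-3420 called 1 higher and 0 lower without inhibitor, after triacsin C and after etomoxir, with medians of 0.10, 0.04 and 0.04, against 4.75%, 17.3% and 12.5% of all genes called higher. Sqstm1, the autophagy receptor p62, rose by 0.84, 1.11 and 0.77 there. Without inhibitor the call of Sqstm1 was lost when vehicle replicate 3 (0.66, adjusted p = 0.183), SR-3420 replicate 1 (0.85, adjusted p = 0.0906) or SR-3420 replicate 3 (0.83, adjusted p = 0.076) was left out, in a range from 0.000377 to 0.248 of the quasi-likelihood test of edgeR with p adjusted by Benjamini-Hochberg and of DESeq2. After etomoxir only the fit to the groups compared lost it (0.76, adjusted p = 0.0576 in that edgeR test with Benjamini-Hochberg adjustment, in a range from 1.04e-05). With triacsin C alone Sqstm1 rose by 0.69, lost without vehicle replicate 3 (0.51, adjusted p = 0.27), triacsin C replicate 1 (0.70, adjusted p = 0.057) or 2 (0.63, adjusted p = 0.0838) and with the length offset (0.52, adjusted p = 0.0669), in a range from 0.00111 to 0.27 by edgeR or DESeq2 (Benjamini-Hochberg adjusted). For triacsin C added to SR-3420 it rose by 0.96, lost without SR-3420 replicate 1 (0.95, adjusted p = 0.139) or 3 (0.97, adjusted p = 0.0536), in a range from 2.75e-06 to 0.139 by edgeR or DESeq2 (Benjamini-Hochberg adjusted). Bag3, a co-chaperone of aggregate clearance, rose by 0.79 with triacsin C alone.

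The genes that interferons induce together with the immunoproteasome lay below 0 in median with SR-3420, the side on which Psmb8, Psmb10 and Psme1 lay. Of 17 such genes SR-3420 called 0 higher and 1 lower without inhibitor, 1 and 7 after triacsin C, and 1 and 4 after etomoxir, with medians of -0.36, -0.68 and -0.32. Of all genes 2.79%, 19.7% and 12.8% were called lower in these comparisons, and 4.75%, 17.3% and 12.5% higher. The peptide transporter Tap1, which shares a divergent start region with Psmb9, had 121, 109 and 103 CPM with triacsin C and 64.2, 68.5 and 52.5 with triacsin C and SR-3420. The class I gene H2-K1 had 1093, 1343 and 1049 CPM with triacsin C and 638, 541 and 411 with triacsin C and SR-3420. In both genes the groups did not overlap. Tap1 fell by 0.85, H2-K1 by 1.13 and Irgm1, an interferon-induced GTPase, by 1.01 after triacsin C, and these calls held in all 14 alternatives. Stat2, which carries the interferon signal to the nucleus, fell by 0.84 without inhibitor, where no inducible subunit was called, and by 0.98 after triacsin C. The chemokine gene Cxcl10 was the only one called higher, and rose by 0.99 and 0.92 after triacsin C and etomoxir. Without inhibitor the call of Stat2 did not hold in every fit without a single sample, in the quasi-likelihood test of edgeR with p adjusted by Benjamini-Hochberg. It was lost without vehicle replicate 3 (-0.73, adjusted p = 0.119), SR-3420 replicate 1 (-0.82, adjusted p = 0.0996) or SR-3420 replicate 3 (-0.85, adjusted p = 0.071), and ran from 6.46e-05 to 0.196 over 12 alternatives of that edgeR test and DESeq2.

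After etomoxir the 4 called lower were Irgm1 (-0.62, adjusted p = 0.0206), Irf9 (-0.60, adjusted p = 0.0371), Tap1 (-0.56, adjusted p = 0.0316) and Stat2 (-0.52, adjusted p = 0.021) in the quasi-likelihood test of edgeR with p adjusted by Benjamini-Hochberg. Each was lost in some fits without a single sample. Irgm1 was lost without etomoxir replicate 3 or replicate 1 or 3 of etomoxir with SR-3420 (-0.60 to -0.56, adjusted p = 0.0518 to 0.0549 by edgeR with Benjamini-Hochberg adjustment, in a range from 0.00505). Irf9, a partner of Stat2, was lost without etomoxir replicate 1 (-0.45, adjusted p = 0.144) and without replicate 2 (-0.57, adjusted p = 0.117) or 3 (-0.56, adjusted p = 0.0891) of etomoxir with SR-3420, in a range from 0.000872 to 0.144 by edgeR or DESeq2 (Benjamini-Hochberg adjusted). Tap1 was lost without etomoxir replicate 1 or 2 or replicate 2 or 3 of etomoxir with SR-3420 (-0.57 to -0.37, adjusted p = 0.0752 to 0.143 by edgeR with Benjamini-Hochberg adjustment, in a range from 0.00102). Stat2 was lost without etomoxir replicate 1 (-0.42, adjusted p = 0.0845) and without replicate 2 (-0.49, adjusted p = 0.0767) or 3 (-0.50, adjusted p = 0.0501) of etomoxir with SR-3420, in a range from 0.000199 to 0.087 by edgeR or DESeq2 (Benjamini-Hochberg adjusted). Triacsin C alone called 1 of the 17 lower and 0 higher, with 6.94% and 4.77% of all genes. It was Nlrc5, the class I transactivator (-0.65, adjusted p = 0.0452 in the quasi-likelihood test of edgeR with p adjusted by Benjamini-Hochberg), a call kept in 5 of 13 alternatives. Each of the 5 fits without a single vehicle or triacsin C sample lost it (-0.69 to -0.61, adjusted p = 0.103 to 0.175), as did the length offset (-0.35, adjusted p = 0.478) and that for GC content and length (-0.34, adjusted p = 0.205), in a range from 0.00157 to 0.478 by edgeR or DESeq2 (Benjamini-Hochberg adjusted).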

How the data were processed

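The counts deposited by the authors were used as given: STAR 2.4.2a aligned reads to mm9, HOMER kept 1 read per position and length, and iRNA-seq v1.1 counted reads per gene. The submitters' notes also name build hg19, which had no role. Genes low in all groups were removed with filterByExpr, leaving 12786 of 20295. edgeR 4.0.16 (R 4.3.3) fitted the 6 group means to TMM-scaled counts with quasi-likelihood, and p-values received Benjamini-Hochberg adjustment over the tested genes of each comparison. The script was tested on simulated data with known changes, and changes of 2-fold were often missed there, so a gene not called may still have changed. DESeq2 1.42.0 was run as an alternative. Tables and figures were made with Python 3.11.15, pandas 2.3.3, numpy 2.4.6 and matplotlib 3.10.9.

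The members were found by symbol, and the genes named include, by rule, every member called in a comparison, the 4 most raised and 4 most lowered called genes of each list, the catalytic subunits, and the member highest per kilobase in each class. Some genes of the lists are not reported here and were left out of their counts. Members and lists were chosen with earlier results of these data known.

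Alternatives were DESeq2, size factors of DESeq2, no filter, only the groups compared, a block for the replicate number, leaving out each sample, a spline over counted length as an offset, and removal of members that overlap another gene. An offset for GC content and length was added after the data were seen. Levels are CPM, and 0.5 was added before log2 for display. Promoters came from the RefSeq table of GRCm38.p6, and no position was converted between builds.

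The samples are 16 from 1 cell line at 1 time, and the groups without inhibitor had 2 samples each. The comparisons without inhibitor therefore had less power, and no call there is no evidence of equal levels. Vehicle had replicates 2 and 3 and SR-3420 replicates 1 and 3. Replicate number and treatment cannot be fully told apart in comparisons that use these groups, the differences between responses included. The labels do not say which samples came from the same experiment. Fold changes varied with gene length in several comparisons and sample levels with GC content; the cause was not tested. Transcript levels give no proteasome activity or subunit protein. Comparisons share control samples, so calls in several of them are not independent. Differences in cell composition were not tested.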

Additional observations from a re-analysis of the deposited data

Results flagged for a closer look

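The test of the difference between responses picked out 2 genes of the lists and no proteasome gene. Cd68, a macrophage marker, was at 14.8, 16.5 and 15.2 CPM with triacsin C and 6.40, 7.08 and 5.54 when SR-3420 followed, at 4.90 and 3.23 CPM with vehicle and 8.14 and 5.01 with SR-3420, and at 5.20, 5.84 and 4.31 CPM with etomoxir and 6.70, 5.77 and 4.53 when SR-3420 followed. Its response with triacsin C was below that without inhibitor by a log2 difference of -1.98 (SE 0.36, adjusted p = 0.0139) and below that with etomoxir by -1.44 (SE 0.32, adjusted p = 0.0329) in the quasi-likelihood test of edgeR with p adjusted by Benjamini-Hochberg. Over the 2 tested macrophage markers the medians of these differences were -0.77 and -0.60. Csf1r did not fall with SR-3420 after triacsin C. The level of Cd68 was high in the triacsin C samples only, and both of its differences share those samples. The first was lost in 2 of 18 alternatives, without vehicle replicate 3 (-1.72, adjusted p = 0.096) and without SR-3420 replicate 1 (-1.58, adjusted p = 0.0882), and the second in 13 of 20, with adjusted p up to 0.0938, by the edgeR test with Benjamini-Hochberg adjustment.

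Nfe2l3, the relative of NRF1, was at 8.17, 8.07 and 9.40 CPM with triacsin C and 1.99, 2.28 and 1.69 when SR-3420 followed, and at 5.79, 4.03 and 5.38 and 5.10, 3.43 and 5.36 CPM in the same order with etomoxir. The response with triacsin C minus that with etomoxir was -1.97 (SE 0.38, adjusted p = 0.0142) in the quasi-likelihood test of edgeR with p adjusted by Benjamini-Hochberg, and was called in all 20 alternatives. Levels this low carry few counts per sample. Whether the lower Nfe2l3 level bears on proteasome genes was not tested.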

How the results depend on the processing

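Of 1115 alternative values for the calls of named genes, markers included, 903 kept the call, 212 lost it and none reversed. The numbers of members called higher and called lower each kept within 1.5 times their values in 125 of 158 alternatives, and the members' median within 1 SD between replicates (0.093) in 132 of 148. Another choice of size factors moved the median log2 fold change of all tested genes by at most 0.04 in each comparison. When a sample was left out of a group of 2, the lone sample was assumed to vary like the other groups. Where not stated otherwise, the cause of a change was not tested.

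For members called, DESeq2 gave 1 lower for SR-3420 without inhibitor (6.93% of all genes higher, 5.47% lower), 6 lower after etomoxir (14.7% and 15.5%), 7 higher for triacsin C alone (6.82% and 9.1%) and 1 higher for triacsin C added to SR-3420 (3.57% and 5.73%). A fit to only the groups compared gave 10 after triacsin C (1 higher, 9 lower, with 22.7% and 23.3% of all genes), 1 lower after etomoxir (5.1% and 4.81%) and 1 higher for triacsin C alone (3.81% and 8.12%). No filter gave 1 higher for triacsin C alone (2.05% and 4.72%), where more genes were tested. The length offset gave 8 after triacsin C (3 higher, 5 lower, with 17.6% and 16.4%) and 0 for triacsin C alone (3.88% and 6.41%). The offset for GC content and length, chosen after seeing the data, gave 15 after triacsin C (8 higher, 7 lower, with 28% and 23.6% of all genes), 10 after etomoxir (4 and 6, with 22.5% and 22.4%), 5 for triacsin C added to SR-3420 (4 and 1, with 7.51% and 10.4%) and 2 for the response with triacsin C minus that without inhibitor (1 and 1, with 4.3% and 3.97%). Without overlapping or non-subunit members 1 was called after etomoxir, since Psme1 was taken out. Leaving out single samples gave 6 to 8 lower after triacsin C (14.7% to 17.2% of all genes lower), 2 to 4 lower after etomoxir (7.41% to 13.4%), and 0 to 2 higher for triacsin C alone (1.37% to 3.24% of all genes higher).

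The members' median moved to 0.0012 with the offset for GC content and length for SR-3420 without inhibitor, and between -0.18 and -0.0043 when single samples were left out. After triacsin C it was 0.11 with the length offset and 0.0782 with that for GC content and length. For triacsin C alone these were 0.056 and 0.0733, and 0.21 to 0.33 when single samples were left out. For the response with triacsin C minus that without inhibitor they were 0.13 and 0.0453, and minus that with etomoxir 0.0779 and 0.0497, each from a median of -0.16.

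With a block for the replicate number, the members called became 21 after triacsin C (3 higher, 18 lower), 8 lower after etomoxir, 15 higher for triacsin C alone, 4 for triacsin C added to SR-3420 (3 higher, 1 lower), 6 lower for etomoxir added to SR-3420, and 3 lower for the response with triacsin C minus that without inhibitor. Of all genes 27.5%, 22.7%, 12%, 9.99%, 5.95% and 5.76% were called higher in these 6 comparisons under the block and 28.7%, 22.5%, 12.1%, 13.5%, 8.42% and 7.29% lower. The block with the length offset gave 2 higher without inhibitor (11.3% of all genes), 17 after triacsin C (9 higher, 8 lower, with 28.9% and 25.1% of all genes), 9 after etomoxir (4 and 5, with 22.5% and 22.6%), 1 higher for triacsin C alone (9.03% and 12%), 6 for triacsin C added to SR-3420 (5 and 1, with 10.9% and 14.5%), 4 lower for etomoxir added to SR-3420 (5.33% and 9.56%), and 1 higher for the response with triacsin C minus that without inhibitor (3.88% and 4.4%). Medians under this block and offset were 0.10 after triacsin C, 0.0694 for triacsin C alone, and 0.0906 and 0.0734 for the response with triacsin C minus that without inhibitor and minus that with etomoxir. Deviations from group means correlated above 0.1 in 27 of 35 pairs with the same number (mean 0.41, from -0.286 to 0.827). Of the 16 samples 11 correlated best with their own number. The 71 pairs with different numbers averaged -0.203, which adds no evidence, since deviations sum to 0 within each group. The correlation within numbers is a hint from the data, not the design.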
